A study of Homo sapiens with 9 samples.

Results

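The stathmins and GAP43 are 5 genes chosen by symbol, STMN1, STMN2, STMN3, STMN4 and GAP43, out of 34961 genes in the deposited table. All 5 passed the filter on low counts that left 20156 genes for testing. Stathmins are small phosphoproteins that bind tubulin dimers and promote the disassembly of microtubules. STMN1 is the cytosolic family member, found in dividing cells of many kinds as well as in neurons, whereas STMN2 (SCG10), STMN3 (SCLIP) and STMN4 (RB3) carry a membrane-anchoring extension and are known as neuronal proteins. GAP43 (neuromodulin) is a calmodulin-binding substrate of protein kinase C that lines the inner membrane of growth cones, the motile tips of growing axons, and is a classical marker of axon outgrowth and regeneration together with STMN2.

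The samples were of WA09 (H9), an established line of human embryonic stem cells, and every group carried the same knock-in of EGFP, a green fluorescent protein, at TPH2, the gene of the enzyme that starts serotonin synthesis in neurons. Each of 3 days has 3 libraries: Day0, the undifferentiated stem cells; Day21, given in the labels as neural progenitors; and Day42, given as serotonin neurons positive for TPH2. All groups carry the same treatment label, induction toward serotonin neurons, also on Day0. The labels call the libraries of a day biological replicates but name no separate differentiation for each, and a p-value therefore rests on the spread among these libraries, which may be technical. Any selection of the Day42 cells, and whether the knock-in line is 1 clone, is not stated in the labels.

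Total counts per library ranged from 58526466 to 69658328. Day42 replicate 3 stood apart, with 10797 genes above 0 against 16077 and 17101 in the other Day42 libraries and 22198 to 24741 on the earlier days. The labels were checked against marker lists as summed FPKM, fragment counts scaled by gene length and library size. The sum of 8 pluripotency markers was 229 to 459 on Day0 and 0.022 to 2.5 on Day42. The sum of 8 pan-neuronal markers was 10.3 to 26.1 at Day0, 79.5 to 132 at Day21 and 920 to 1024 at Day42, and that of 8 serotonin markers was 592 to 650 at Day42 against at most 1.98 on the other days. SLC6A4, the serotonin transporter and a defining marker, was listed at 0 in every Day42 library. Markers of other cell types moved with the days too, and their part in the results was not tested. The sum of 8 mesenchymal markers was 2.59 to 2.77 at Day0, 108 to 115 at Day21 and 18.3 to 52 at Day42, that of 8 neural progenitor markers was 56.4 to 81.1, 214 to 259 and 67.8 to 97.3, and that of 10 glial markers was at most 5.2 in any library, with GFAP and AQP4 listed at 0 at Day42. By edgeR, 5 of the 8 progenitor markers were called lower from Day21 to Day42 (62.5%, against 19.7% of all genes tested). They were HES5, SOX3, PAX6, NES and VIM, and none was called higher. HES5 was listed at 0 in every Day0 and Day42 library. Against Day0, Day42 had SOX1, VIM and MSI1 called higher and SOX3 and PAX6 lower, so the sum joins markers that moved differently. Genes of ribosomal proteins took 6.21% to 9.99% of the counts on Day0 and Day21 and 1.72% to 2.11% on Day42. In RNA from bulk cultures, fewer cells of a type and less RNA per cell cannot be told apart.

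In the coordinates of the deposited table (GRCh38), STMN1 (ENSG00000117632) spans chr1:25884181-25906991 on the minus strand, STMN3 (ENSG00000197457) spans chr20:63639705-63653424 on the minus strand, and GAP43 (ENSG00000172020) spans chr3:115623510-115721490 on the plus strand. STMN2, STMN3 and STMN4 overlap no other gene model in GENCODE release 29. STMN1 shares 66 exon bases with the microRNA gene MIR3917 on its strand, which had 1 count in every library, and 2 pseudogenes within its span on the other strand share no exon base with it. GAP43 contains the intronic transcript AC092468.1, with at most 35 counts. The pseudogene of STMN2 and that of STMN1 in the table had at most 12 and 4 counts. The authors' handling of reads that match several copies was not stated in the labels or headers.

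Promoter sequence was available in the RefSeq table (GRCh38.p14) for 3 of the 5 members, STMN1, STMN3 and GAP43. The windows hold the 250 bases before the RefSeq start, and for STMN1, which has several starts, the one with the most GENCODE transcripts beginning near it. Bases from the nearest annotated exon of the gene onward are left out, which are 47 of STMN1 and 186 of GAP43, because other transcripts begin inside these windows. The printed stretches of STMN1 and STMN3 lie in introns of longer GENCODE transcripts that begin further upstream, and that of GAP43 lies ahead of the whole gene. They are shown because the 3 genes had 3 different time courses: STMN1 was high from the start, GAP43 rose in both steps and STMN3 passed the test in neither. Capitals mark matches on either strand to GGGCGG (the GC box), CCAAT (the CCAAT box) and CANNTG (the E-box), of which the printed stretch of GAP43 holds none.
STMN1, chr1:25906467-25906669, minus strand: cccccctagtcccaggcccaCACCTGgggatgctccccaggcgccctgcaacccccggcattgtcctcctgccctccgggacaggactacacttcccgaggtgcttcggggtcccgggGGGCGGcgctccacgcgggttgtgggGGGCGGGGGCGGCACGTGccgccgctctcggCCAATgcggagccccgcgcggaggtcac
STMN3, chr20:63652767-63653016, minus strand: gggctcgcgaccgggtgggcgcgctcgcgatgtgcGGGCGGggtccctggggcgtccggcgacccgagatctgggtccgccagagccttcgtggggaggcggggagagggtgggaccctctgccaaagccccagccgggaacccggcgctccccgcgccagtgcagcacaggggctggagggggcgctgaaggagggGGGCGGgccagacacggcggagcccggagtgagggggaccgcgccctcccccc
GAP43, chr3:115623260-115623323, plus strand: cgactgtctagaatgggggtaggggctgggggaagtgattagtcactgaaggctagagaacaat

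The windows differed in base composition. Over the whole 250 bases, G and C made up 73.2% for STMN1 and 78% for STMN3, with 25 and 28 CpG dinucleotides, against 51.6% and 7 for GAP43. The medians over 35116 promoter windows of that length were 58% and 11. GAP43 stood out in its purines: A and G made up 78.4% of its window, more than in 99.9% of all windows, against 44.4% for STMN1 and 58% for STMN3. Of the window of GAP43, 186 bases lie from the nearest annotated exon onward, so its values are mostly not those of sequence ahead of that exon. The window of STMN1 held GGGCGG 3 times, STMN3 held it 2 times and GAP43 did not hold it, and 42.6% of all windows hold it. CCAAT occurred once each for STMN1 and GAP43 (32% of all windows), and CANNTG occurred 3 times for STMN1 and once for GAP43 (61.8%). The matches of GAP43 began 137 and 30 bases before its start, within those 186 bases. The letters TTTGGCGC, a form of the site bound by the cell cycle factors E2F, began 38 bases before the start of STMN1, nearer to it than the printed stretch, and occurred in 0.55% of all windows. Of the 2 parts of the site of the neuronal gene repressor REST, TTCAGCACC occurred in none of the 3 windows (0.288% of all windows) and GGACAGC in that of GAP43 alone (4.76%). The latter began 97 bases before the start of GAP43, also within the 186 bases. A match is a description of letters, and no binding was measured.

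STMN1 was already abundant in stem cells, was higher on Day21 and did not pass the test between Day21 and Day42. Its FPKM was 113, 111 and 125.7 in Day0 replicates 1 to 3, 430.3, 640.6 and 425.1 on Day21, and 606.3, 531 and 1157 on Day42. All Day0 libraries lay below all others, while the Day21 and Day42 libraries overlapped and Day42 replicate 3 was higher than any other library. The edgeR log2 fold change from Day0 to Day21 was 2.06 ± 0.36 (SE, n = 3 per day, adjusted p = 0.0229), or 4.18-fold. From Day21 to Day42 it was -0.03 ± 0.34 (edgeR, adjusted p = 0.977). The mean FPKM nevertheless went from 499 ± 123 to 765 ± 342 (SD, n = 3), a ratio of 1.53, and limma on log2(FPKM + 1) gave 0.56 (adjusted p = 0.182), so the direction of this step differs with the scale. The edgeR value rests on TMM scaling, on which the median log2 change of all tested genes in this step was -0.54. Without Day42 replicate 3 the log2 change was -0.50 (edgeR, adjusted p = 0.219). Against Day0, Day42 was higher by 2.03 ± 0.36 on the log2 scale (edgeR, adjusted p = 0.00356). The rise to Day21 was a close call: it was lost when any Day0 or Day21 library was left out, with adjusted p from 0.0708 to 0.123 and log2 changes from 1.77 to 2.21.

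STMN2 (ENSG00000104435, chr8:79611117-79666158 in GRCh38, plus strand) had the largest first step of the members and rose again in the second. Its FPKM was 0.841, 0.827 and 0.872 in the Day0 libraries, which corresponds to 123 to 143 counts. It was 76.2, 63 and 65.8 at Day21 and 874.9, 962.8 and 1170 at Day42. The 3 days did not overlap, and libraries within a day lay close together: the coefficient of variation was 2.7%, 10.2% and 15.1% on Day0, Day21 and Day42. Among all genes whose mean reached 10 FPKM that day, the median coefficient was 22.2%, 16% and 31.2%. The log2 fold change was 6.26 ± 0.22 from Day0 to Day21 (edgeR, n = 3 per day, adjusted p = 2.25e-05), or 76.8-fold. From Day21 to Day42 it was 3.24 ± 0.19 (edgeR, adjusted p = 0.0001), or 9.43-fold. These calls held under all 18 alternatives. Leaving out Day42 replicate 3 gave a second step of 3.08 (edgeR, adjusted p = 6.18e-05).

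STMN4 (ENSG00000015592, chr8:27235323-27258420 in GRCh38, minus strand), the member lowest on Day0, rose in both steps. Its FPKM was 0.187, 0.287 and 0.235 at Day0 (44 to 77 counts), 8.87, 10.7 and 14.7 at Day21, and 369.3, 334.4 and 300.4 at Day42. No library of a later day reached down to those of an earlier one. The log2 fold change was 5.54 ± 0.33 to Day21 (edgeR, n = 3 per day, adjusted p = 0.000273) and 4.20 ± 0.30 from there to Day42 (edgeR, adjusted p = 0.000215). Over both steps it was 9.74 ± 0.39 (edgeR, adjusted p = 1.13e-05), or 856-fold, and the second step was 4.26 without Day42 replicate 3 (edgeR, adjusted p = 0.000144). STMN2 had the other rise of this size, with 9.50 ± 0.25 (adjusted p = 2.01e-06 by edgeR), or 724-fold. Only 130 and 148 of the 20156 genes tested had a larger rise from Day0 to Day42 than STMN4 and STMN2.

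STMN3, although named with the neuronal stathmins, stayed low, with the libraries of a day far apart. Its FPKM was 2.07, 1.01 and 6.34 at Day0, 10.2, 3.54 and 2.25 at Day21, and 5.66, 5.71 and 11.5 at Day42. The days overlapped throughout. The coefficient of variation was 89.9%, 80.2% and 44% on Day0, Day21 and Day42, the highest of the members on Day0 and Day21. The log2 fold change was 0.70 ± 0.78 to Day21 (edgeR, n = 3 per day, adjusted p = 0.833) and -0.05 ± 0.78 from Day21 to Day42 (edgeR, adjusted p = 0.993). Over both steps it was 0.65 ± 0.78 (edgeR, adjusted p = 0.592). Each of these errors was larger than the change it belongs to, so the data set only loose limits on a change of STMN3.

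GAP43 was present in stem cells, rose in both steps and became one of the most abundant transcripts on Day42. Its FPKM was 22.9, 36.8 and 14.8 at Day0, 84.5, 107 and 120.8 at Day21, and 2345, 1948 and 1835 at Day42. The 3 days did not overlap, and the Day42 libraries ranked GAP43 9th, 11th and 14th by FPKM among all genes. Its part of all counts was 0.00576% ± 0.00257 in stem cells, 0.0251% ± 0.00434 at Day21 and 0.45% ± 0.0661 at Day42 (SD, n = 3). The log2 fold change was 2.01 ± 0.37 to Day21 (edgeR, adjusted p = 0.0299), or 4.03-fold, and 3.63 ± 0.39 from Day21 to Day42 (edgeR, adjusted p = 0.000822), or 12.3-fold. The first of these was lost without Day0 replicate 1 or without any 1 of the Day21 libraries, with adjusted p from 0.0597 to 0.152, while the later step was called under all 18 alternatives. That later step was 3.68 for GAP43 without Day42 replicate 3 (edgeR, adjusted p = 0.000802).

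**Figure D1:**
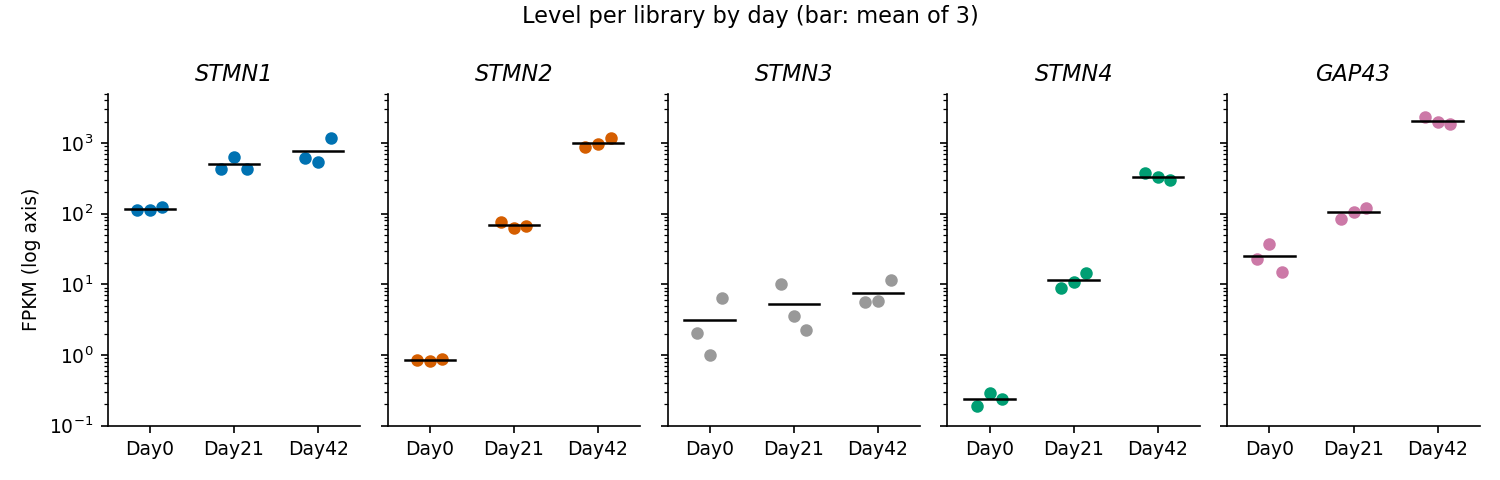
FPKM of each member (log axis) in the 3 libraries of Day0, Day21 and Day42, with points for replicates 1 to 3 from left to right and a bar at their mean. STMN2, STMN4 and GAP43 separate all 3 days, STMN1 separates Day0 from the others, and STMN3 overlaps throughout.

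Counted together, 4 of the 5 members were higher on Day21 than on Day0 by edgeR at an adjusted p under 0.05 and a log2 change of at least 1, against 1.32% of all genes tested (1.18% were lower). From Day21 to Day42, 3 of 5 were higher against 6.52% of all genes, and from Day0 to Day42 4 of 5 were higher against 8.82%. No member was called lower in any comparison. The same 4, STMN1, STMN2, STMN4 and GAP43, had every Day21 library above every Day0 library in FPKM, as did 25% of all genes. From Day21 to Day42, 3 members had all libraries higher (15.8% of all genes), and over both steps 4 did (16.1%). None was lower at an unadjusted p under 0.05, and DESeq2, limma on log2(FPKM + 1) and the fit without Day42 replicate 3 gave the same counts. In these fits 1387 of 20156, 616 of 10619 and 1434 of 21827 of all genes were higher on Day21 than on Day0. From Day0 to Day21 the count of members fell from 4 to 2 with replicate numbers as a block, without Day0 replicate 1 and without any 1 of the Day21 libraries. The 3 comparisons share libraries, so they are not independent. The members were chosen with earlier results known, so these shares describe them and do not test them.

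The members differed in how the rise was split between the steps. The log2 change in the second step minus that in the first was -3.02 ± 0.29 for STMN2 (edgeR, adjusted p = 0.00139) and -2.10 ± 0.58 for STMN1 (edgeR, adjusted p = 0.043), so both moved more in the first step. STMN4 gave -1.34 ± 0.45 (edgeR, adjusted p = 0.089) and STMN3 -0.75 ± 1.33 (edgeR, adjusted p = 0.841). GAP43 had a positive value by edgeR, 1.62 ± 0.64, which did not pass the threshold (adjusted p = 0.141). For STMN4 the direction depended on the scale: limma on log2(FPKM + 1) gave 1.48 and passed (adjusted p = 0.0259), while a pseudocount of 0.1 gave -0.19 (limma, adjusted p = 0.821). Among all genes tested, 12.9% were called with a negative and 2.25% with a positive difference. That of STMN2 was called under all 17 alternatives and that of STMN1 was lost in 12 of 17. For GAP43 it passed with limma on log2(FPKM + 1), at 2.19 (adjusted p = 0.0167), with 3 other alternatives and not with the remaining 13.

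**Figure D2:**
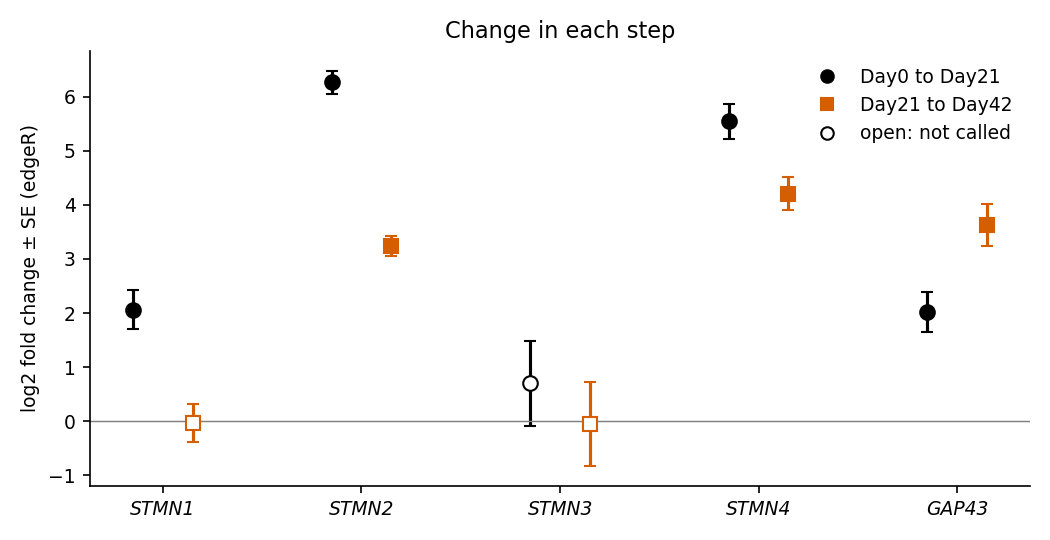
edgeR log2 fold change ± SE of each member from Day0 to Day21 (circles) and from Day21 to Day42 (squares), 3 libraries per day, with open symbols where the change was not called. STMN2 changed by 6.26 and then 3.24, GAP43 by 2.01 and then 3.63, and the second step of STMN1 sits at -0.03.

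The composition of the stathmin family shifted from nearly all STMN1 to a mixture. The summed FPKM of the 4 stathmins was 121 ± 10.8 in stem cells, 584 ± 116 at Day21 and 2110 ± 459 at Day42 (SD, n = 3). STMN1 made up 96.6% ± 1.96 of it at Day0, 84.9% ± 3.84 at Day21 and 35.2% ± 7.75 at Day42. The share of STMN2 went from 0.704% ± 0.0426 to 12.1% ± 2.96 and 48% ± 4.15, and that of STMN4 from 0.197% ± 0.0498 to 2.02% ± 0.757 and 16.5% ± 4.51. In the Day42 libraries the share of STMN1 was highest, 43.8%, in replicate 3. STMN3 took 2.48% ± 2.03, 0.96% ± 0.853 and 0.35% ± 0.0735. With 3 libraries a day, an exact permutation test between 2 days cannot go below p = 0.1, and none was run on the shares.

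**Figure D3:**
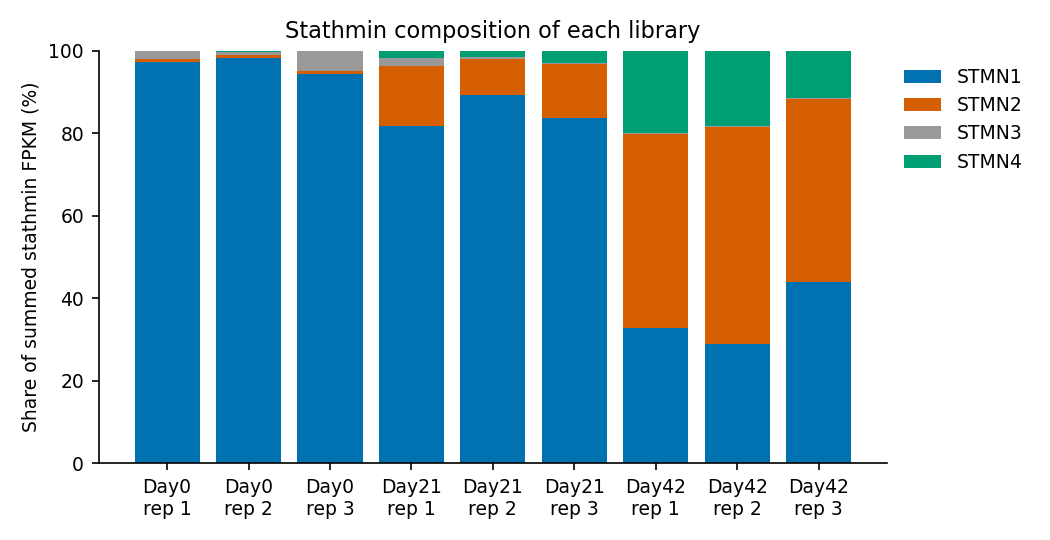
Share of each stathmin in the summed stathmin FPKM of each library, in percent, replicates 1 to 3 of Day0, Day21 and Day42. STMN1 fills 94.4% to 98.1% of the Day0 libraries and 29% to 43.8% of the Day42 libraries, where STMN2 takes 44.3% to 52.5%.

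On the FPKM scale the order of the members changed with the day. On Day0 it was STMN1, GAP43, STMN3, STMN2 and STMN4 from the highest, with no overlap between neighbours. On Day21 it was STMN1, GAP43, STMN2, STMN4 and STMN3, and only STMN4 and STMN3 overlapped. On Day42 it was GAP43, STMN2, STMN1, STMN4 and STMN3, with STMN2 above STMN1 in 3 of 3 libraries although their ranges overlapped. GAP43 exceeded STMN2 29.6-fold ± 13.9 at Day0, 1.55-fold ± 0.387 at Day21 and 2.09-fold ± 0.559 at Day42 (SD of the ratio, n = 3), and on the later days this order did not hold on another length scale.

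The place of STMN1 in this order, and which of GAP43 and STMN2 is higher on the later days, depend on the gene length used. Counts divided by FPKM give STMN1 a length 3.04 times that of STMN2 in the authors' values, close to the ratio of 2.65 between all annotated exon bases of the genes. The coding transcripts of STMN1 in GENCODE release 29 are 665 to 1712 bases long against 6261 exon bases in all. Those of STMN2 range from 585 to 2223 bases (median 799) and those of GAP43 from 1691 to 1901 (median 1796). The STMN2 range reaches both below and above that of GAP43, so the order of these genes depends on the length taken for STMN2. With counts scaled by the library total and the length of the median coding transcript, a scale chosen after seeing the data, STMN1 was at 4259, 3747 and 7808 in the Day42 libraries. STMN2 was at 2621, 2898 and 3367 and GAP43 at 2909, 2429 and 2186 on that scale, so STMN2 was above GAP43 in 2 of 3 libraries and their ranges overlapped. On Day21 STMN2, at 250.1, 199.9 and 214.4, lay above GAP43, at 114.9, 140.7 and 163.2, in every library, the reverse of the order by FPKM. STMN1 was then the highest of the members on Day42 as on the other days, and made up 55.4% ± 8.18 of the stathmins on Day42, with STMN2 at 32.7% ± 4.92 and STMN4 at 11.6% ± 3.72. By the coding length the share of STMN1 was 98.3% ± 1.06 on Day0 and 92.8% ± 2 on Day21, so it was lower on each later day on both scales.

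The genes with the most similar profiles were found as the smallest root mean square difference of centred log2(FPKM + 1) over the 9 libraries, among 4225 genes. For GAP43 they were DCX, a microtubule-binding protein of young neurons, at 0.356, KIFAP3, the cargo adaptor of kinesin-2, at 0.453 and ARRDC3, an arrestin-domain protein, at 0.521. For STMN4 they were IL13RA2, an interleukin 13 receptor, at 0.53, DCX at 0.606 and SNAP25, a protein of the synaptic fusion machinery, at 0.824. IL13RA2 (1.09), DCX (1.29) and NEFL, the light neurofilament subunit (1.33), were the nearest to STMN2. Among the members, GAP43 and STMN4 differed by 0.768, STMN2 and STMN4 by 0.831 and STMN2 and GAP43 by 1.44. DCX was at 0.0409, 0.0628 and 0.0582 FPKM at Day0, 3.7, 3.7 and 5.06 at Day21 and 101, 107 and 117 at Day42. At such low values the pseudocount of 1 flattens the first step: by edgeR it was 6.19 ± 0.28 for DCX (adjusted p = 0.000109), against 2.01 for GAP43.

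STMN1 and STMN3 had neighbours of other kinds. The nearest to STMN1 were CIBAR1P1 (0.28), SVIP (0.307) and CIBAR1 (0.345). CIBAR1P1 is a pseudogene of CIBAR1, and their reads may not be told apart. The nearest to STMN3 were KDELR1, a retrieval receptor of the endoplasmic reticulum (0.265), MTCH1, an outer mitochondrial membrane protein (0.314), and POR, the reductase that serves cytochrome P450 enzymes (0.332). KDELR1 was at 8.81, 7.05 and 23.6 FPKM at Day0, 24.3, 12.1 and 9.45 at Day21 and 18.7, 14.6 and 46 at Day42. The libraries high for STMN3, replicate 3 on Day0 and Day42 and replicate 1 on Day21, were also the high ones for KDELR1. KDELR1 was picked for its likeness to STMN3 over these same libraries, so this match follows from the choice. What these libraries share was not tested.

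**Figure D4:**
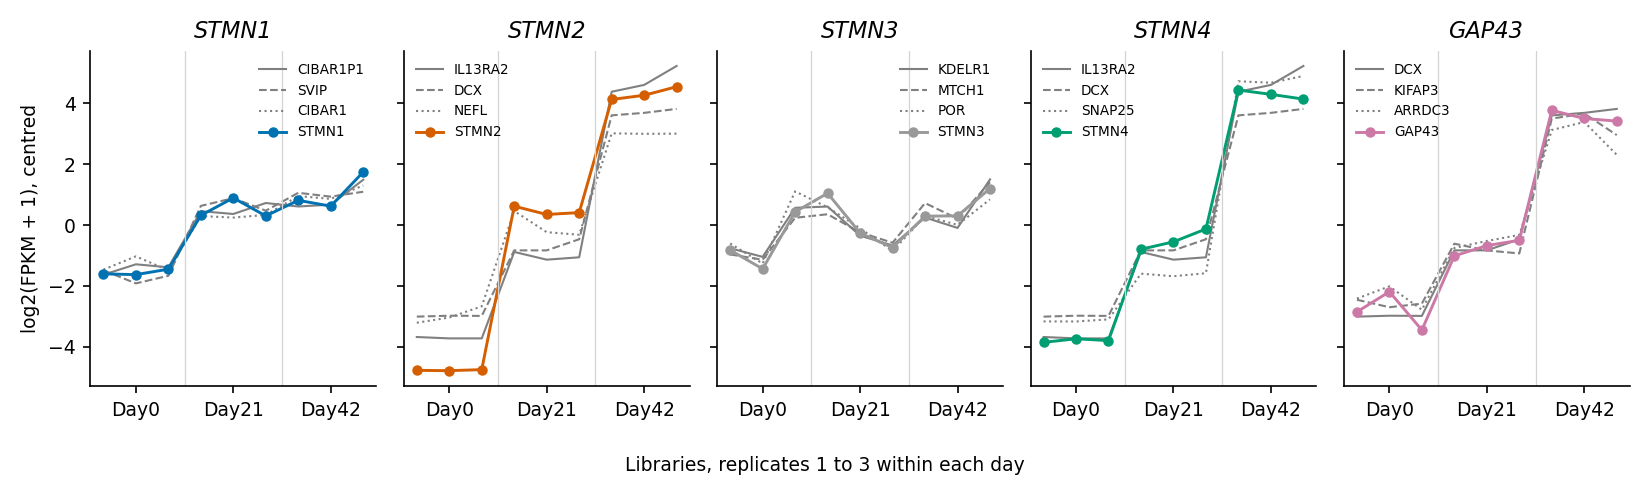
Centred log2(FPKM + 1) of each member (coloured points) and of the 3 genes with the most similar profile (grey lines), for replicates 1 to 3 of Day0, Day21 and Day42. The 3 lines lie within 0.521 root mean square of GAP43, while those of STMN2 differ by 1.09 to 1.33 and lie above it in every Day0 library.

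The genes around the members were counted in 7 lists, each read against the genes called among all those tested, 1.32% higher and 1.18% lower from Day0 to Day21, 6.52% and 19.7% from Day21 to Day42, and 8.82% and 23.4% from Day0 to Day42. No test of a list was run. Counts of BASP1, CDC42, CELF4, CTDSP1, DPYSL2, ELAVL3, ELAVL4, GNAO1, KDM1A, KIFAP3, MAPK10, NEFL, NTRK3, PAK3, POR, PPP2R2B, PRKACB, RTN1 and TARDBP are less certain, because another gene model overlaps each on its strand. The strand setting of the counter was not stated, so models on the other strand may matter too. Such models overlap REST, KIF18A, CAMK2A, PPP3CB and SNAP25, among others.

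Stathmins are switched off by phosphorylation and held at membranes by palmitoylation. The 28 genes tested here encode kinases and their activators, phosphatases, acyltransferases, and LYPLA1 and LYPLA2, which remove palmitate. From Day0 to Day21, 2 were higher and 2 lower by edgeR (7.14% each, against 1.32% and 1.18% of all genes). MAPK10, the neuronal JNK3, rose by 4.02 ± 0.31 on the log2 scale (edgeR, adjusted p = 0.000755) and PAK3, a brain form of the p21-activated kinases, by 1.25 ± 0.22 (edgeR, adjusted p = 0.0253). PAK1 fell by 1.46 and PPP2R2B, a regulatory subunit of protein phosphatase 2A, fell by 1.45 (edgeR, adjusted p = 0.0424 and 0.0398). Both were close calls, lost in 9 and 8 of 18 alternatives, among them each fit without 1 of the Day0 or Day21 libraries. The second step had 8 higher (28.6%, against 6.52% of all genes) and 2 lower (7.14%, against 19.7%), with a median log2 change of 1.00 against -0.54 over all genes. PAK3 rose by a further 4.46 ± 0.25 and PRKACB, a catalytic subunit of protein kinase A, by 4.38 ± 0.45. AURKB, a mitotic kinase that acts on STMN1, went from 50.1, 44.2 and 48.8 FPKM on Day21 to 0, 0.0372 and 0.0218 on Day42. From Day0 to Day42 the count was 7 higher (25%, against 8.82%) and 2 lower (7.14%, against 23.4%), CAMK2A and CAMK2B among the higher. CAMK2A was listed at 0 on Day0 and was at least 24.8-fold higher on Day42 than a limit of 12 counts per library. The counts without Day42 replicate 3 were 12 higher and 2 lower in the second step and 13 and 3 over both. Of all 21827 genes in that fit, 2416 were higher and 4859 lower in the second step, and 3220 and 5664 over both. CDK5R1, the activator of CDK5, was at 14.5 and 13.4 FPKM in Day42 replicates 1 and 2 and listed at 0 in replicate 3. With all 9 libraries edgeR called it in no comparison (Day42 against Day0 4.81, adjusted p = 0.111). Leaving out that library, it was called from Day21 to Day42 and from Day0 to Day42 (edgeR, adjusted p = 0.00216 and 0.000407), and DESeq2 and voom called the latter too. MAPK8, which encodes JNK1, just missed the threshold by edgeR (Day42 against Day0 1.12 ± 0.38, adjusted p = 0.0516) and was called there in 6 of 18 alternatives, DESeq2 and the fit without Day42 replicate 3 among them.

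Among 21 partners of GAP43 and membrane proteins like it, 1 was higher from Day0 to Day21 and none was lower (4.76% and 0%, against 1.32% and 1.18% of all genes). This was CAMK2N1, an inhibitor of CaM kinase II, which rose by 4.55 ± 0.43 on the log2 scale (edgeR, adjusted p = 0.00199). In the second step, 8 were higher (38.1%, against 6.52%) and 2 lower (9.52%, against 19.7%), with a median of 1.62 against -0.54 over all genes. From Day0 to Day42, 10 were higher (47.6%, against 8.82%) and none lower (against 23.4%), with a median of 1.80 against -0.57. GNAO1, the G protein subunit that GAP43 stimulates, rose by 4.80 ± 1.01 between Day21 and Day42 (edgeR, adjusted p = 0.00952), although its Day42 libraries were at 0.889, 0.315 and 3.3 FPKM. PPP3CB, a subunit of the phosphatase calcineurin, rose by 3.39 ± 0.87 and PRKCD by 3.48 ± 0.88 in that step, calls that were lost in 6 and 4 of 18 alternatives. PRKCE was listed at 0 on Day0 and reached 0.783, 0.369 and 0 on Day42, at least 14.8-fold higher by the same limit, with 1 Day42 library at 0 and its call lost in 9 of 14 alternatives. DESeq2 called 5 partners higher and 1 lower on Day21, against 1387 and 1565 of all 20156 genes. Without Day42 replicate 3 the counts were 4 and 1, against 1434 and 1460 of 21827 genes. No partner was lower on Day42 than on Day0 by DESeq2 either, against 5675 of all genes, and 1 was at an unadjusted p under 0.05 by edgeR. BASP1, another calmodulin-binding protein of the growth cone membrane, was at 21.3, 110 and 135 FPKM at Day0, 250, 39.4 and 227 at Day21 and 626, 720 and 103 at Day42. Its days overlapped and it was not called in any comparison (Day42 against Day0 by edgeR 1.77 ± 0.90, adjusted p = 0.175), whereas GAP43 in the same libraries separated all days.

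Of 28 other growth cone and axon outgrowth genes, 5 were higher and 1 lower from Day0 to Day21, 8 higher and none lower from Day21 to Day42, and 15 higher and none lower from Day0 to Day42. The shares called higher were 17.9%, 28.6% and 53.6%, against 1.32%, 6.52% and 8.82% of all genes, and those called lower 3.57%, 0% and 0%, against 1.18%, 19.7% and 23.4%. Their median log2 changes were 1.21, 0.98 and 2.08, against 0.03, -0.54 and -0.57 over all genes. Without Day42 replicate 3, 11, 12 and 18 were higher, against 1434, 2416 and 3220 of all 21827 genes in that fit. DESeq2 called 12 higher on Day21, against 1387 of 20156 genes. By DESeq2 1 was lower from Day21 to Day42 and 2 from Day0 to Day42, against 5094 and 5675 of all genes. By edgeR 1 of the list was lower in each of these comparisons at an unadjusted p under 0.05. DPYSL5 rose by 4.30 ± 0.61 to Day21, RTN1 by 4.07 ± 0.41 and NRCAM, a cell adhesion molecule of axons, by 3.75 ± 0.44 (edgeR, adjusted p = 0.0107, 0.00225 and 0.00442). The call of DPYSL5 was lost in 4 of 18 alternatives, while those of RTN1 and NRCAM held in all 18. DPYSL3, of the same collapsin response mediator family as DPYSL5, went the other way at first. It was at 9.57, 9.79 and 16.9 FPKM at Day0, 3, 2.21 and 1.8 at Day21 and 26.6, 18.1 and 8.68 at Day42. Its fall to Day21 (edgeR -2.41 ± 0.43, adjusted p = 0.0253) lost its call in 7 of 18 alternatives. From Day21 on, RTN1 rose by a further 3.07 ± 0.39, CDC42 by 2.56 ± 0.39 and DPYSL2 by 2.32 ± 0.40. CHL1, an adhesion molecule, had the largest fitted rise of the list over both steps, 8.09 ± 1.58, from at most 0.00804 FPKM on Day0.

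The transcription factors and effectors tied to axon regeneration, where GAP43 and STMN2 serve as markers, counted 16 tested genes. From Day0 to Day21, 1 was called, the neurotrophin receptor NTRK2, higher by 8.59 ± 1.63 (edgeR, adjusted p = 0.0334), which is 6.25% of the list against 1.32% of all genes called higher. That call was lost with the replicate block and without any 1 of the Day0 or Day21 libraries, 7 of 18 alternatives, and the change was 1.23 by limma on log2(FPKM + 1). In the second step 6 genes were higher and none lower (37.5% and 0%, against 6.52% and 19.7%), with a median of 1.79 against -0.54 over all genes, among them KLF6 by 3.52 ± 0.31 (edgeR, adjusted p = 0.000362) and ATF3, a stress-induced factor, by 2.95 ± 0.61 (edgeR, adjusted p = 0.00897). NTRK3 rose by 4.61 ± 1.39 in that step but was at 0.337, 1.79 and 0.035 FPKM on Day42, and its call (edgeR, adjusted p = 0.04) was lost in 10 of 15 alternatives, among them the fit without Day42 replicate 2, the highest of these. From Day0 to Day42, 9 were higher and 1 lower (56.2% and 6.25%, against 8.82% and 23.4%), with a median of 2.58 against -0.57. None was lower in the second step by DESeq2 or at an unadjusted p under 0.05 by edgeR. KLF6 was at 3.91, 5.26 and 4.49 FPKM at Day0, 7.1, 6.02 and 11.1 at Day21 and 119, 160.3 and 159 at Day42, with no overlap between the days.

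Messages of STMN2 and GAP43 are bound by RNA-binding proteins, TDP-43 in the case of STMN2 and the neuronal ELAV proteins in that of GAP43. Of 12 such regulators 2 were higher on Day21 than on Day0, ELAVL3 and ELAVL4 (16.7%, against 1.32% of all genes), and none was lower (against 1.18%). The calls of ELAVL3 and ELAVL4 were lost in 7 of 15 and 4 of 18 alternatives. ELAVL4 (HuD) went from 0.00613, 0 and 0.0146 FPKM at Day0 to 2.28, 1.64 and 1.72 at Day21 and 8.92, 6.89 and 7.89 at Day42. Its first step was called (edgeR log2 change 7.98 ± 1.14, adjusted p = 0.0107) and its second was not (1.43 ± 0.84, adjusted p = 0.268). Later, from Day21 to Day42, 3 regulators were higher (25%, against 6.52%) and 2 lower (16.7%, near the 19.7% of all genes), the higher ones being CELF4 by 4.58 ± 0.47, PTBP2 by 3.74 ± 1.17 and ELAVL2 by 2.33 ± 0.34. PTBP2 rested on Day42 replicates 2 and 3, at 16.8 and 20.2 FPKM against 0.433 in replicate 1, and its call (edgeR, adjusted p = 0.0452) was lost in 14 of 18 alternatives, limma at both pseudocounts and voom among them. The median log2 change of the list in that step was 1.39, and 0.06 without Day42 replicate 3. From Day0 to Day42, 5 were higher and 4 lower (41.7% and 33.3%, against 8.82% and 23.4%), with a median of 1.24 that became -0.09 without that library. TARDBP, which encodes TDP-43, was at 5.27, 6.84 and 5.4 FPKM at Day0, 7.97, 5.52 and 4.47 at Day21 and 25.4, 5.09 and 39.8 at Day42. STMN2 was at 874.9, 962.8 and 1170 FPKM in those Day42 libraries, and a link between TARDBP and STMN2 was not tested. With all libraries edgeR called TARDBP in no comparison (Day42 against Day21 1.37 ± 0.64, adjusted p = 0.162). Without Day42 replicate 2, the low one, it was called higher on Day42 than on Day21 (edgeR 1.93, adjusted p = 0.00778) and than on Day0 (edgeR 1.88, adjusted p = 0.00733).

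REST silences neuronal genes outside neurons, and STMN2 is one of its classical targets. REST was at 2.82, 2.97 and 3.9 FPKM at Day0, 4.17, 2.55 and 2.42 at Day21 and 3.41, 2.73 and 0.0051 at Day42. The first 2 Day42 libraries thus lay within the range of the earlier days and the third was far below. STMN2 was between 874.9 and 1170 in those 3 libraries, and REST was not called between any days (Day42 against Day0 by edgeR -1.38 ± 1.34, adjusted p = 0.499). REST protein was not measured, and a link between REST and STMN2 was not tested. Of 16 genes of the REST complex none was called by edgeR from Day0 to Day21, a step in which few of all genes were (1.32% higher and 1.18% lower). At an unadjusted p under 0.05 1 was higher, and DESeq2 called 1 higher, against 1387 of 20156 genes. The second step had 1 higher (6.25%, against 6.52% of all genes), RCOR3 by 2.19 ± 0.56, a call lost in 6 of 18 alternatives, and 2 were lower (12.5%, against 19.7%), CTDSP1 and RCOR2, which were at most 0.385 and 0.342 FPKM in any library. The count of lower genes in that step was 4 of 16 without Day42 replicate 3, near the share of all genes in that fit (4859 of 21827). KDM1A, the demethylase of the complex, rose by 1.05 ± 0.23 from Day0 to Day42.

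STMN1 is also known as a regulator of the mitotic spindle, so 20 mitotic microtubule genes were set beside it. None was called from Day0 to Day21 by edgeR or DESeq2, with 2 higher at an unadjusted p under 0.05 and a median log2 change of 0.34, a step in which few of all genes were called (1.32% higher and 1.18% lower). On Day42, 15 of 20 were lower than on Day21 and none higher, against 19.7% of all genes lower, and from Day0 to Day42 16 of 20 were lower, against 23.4%. Without Day42 replicate 3, 19 of 20 were lower in both comparisons, against 4859 and 5664 of all 21827 genes. The proliferation marker MKI67 was at 7.94, 4.02 and 4.47 FPKM on Day21 and 0.0084, 0.00429 and 0.00397 on Day42. BUB1, KIF18A and KIF11 were listed at 0 in every Day42 library, at least 283-fold, 111-fold and 100-fold lower than on Day21 against a limit of 12 counts per library. STMN1 in these libraries was at 531 to 1157 FPKM.

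**Figure D5:**
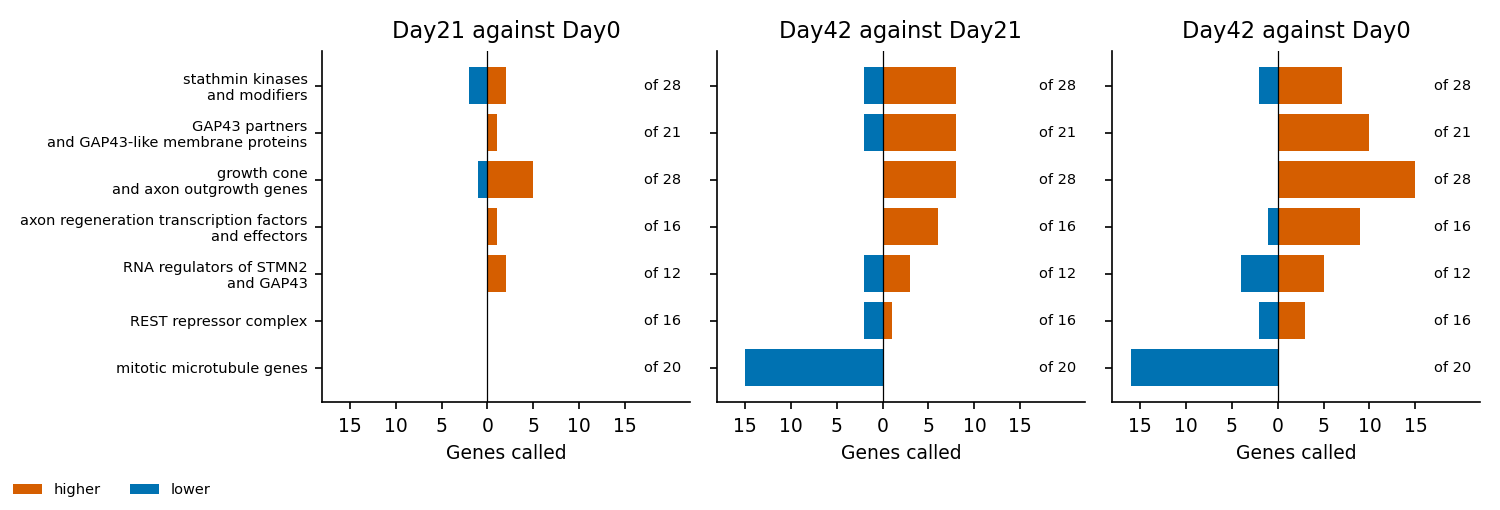
Number of genes called higher (right, orange) or lower (left, blue) by edgeR in each of 7 gene lists and each comparison, with the number tested at the right. The growth cone list reaches 15 of 28 higher on Day42 against Day0 and the mitotic list 15 and 16 of 20 lower.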

How the data were processed

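RNA-seq of 9 libraries, 3 per day, was analysed from a table in which the authors deposited read counts and FPKM per gene, per the file headers. Per the labels, RNA was extracted with Trizol and libraries were made with the NEBNext low input kit. Per the submitters' processing notes, cutadapt 1.9 and FastQC were used with GRCh38. Not given in the sources used here are the aligner, the counter, its strand setting, the annotation and the gene lengths behind FPKM. The value 4 stood in 7999 cells, the values 3 and 5 in 3658 and 3700, so low counts favour steps of 4, and the limit for a count of 0 was set at 12 counts.

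The members and gene lists were chosen with earlier results of these data known. Counts were filtered with filterByExpr, scaled by TMM (factors 0.763 to 1.39) and fitted with edgeR 4.0.16 (quasi-likelihood, 1 mean per day, all 9 libraries) in R 4.3.3. Calls needed p under 0.05 after Benjamini-Hochberg adjustment and a log2 change of 1 or more in size. The SE given with an edgeR change is the size of the change divided by the square root of its F statistic. It is not an error estimated by the fit itself. The contrast between the steps was chosen after seeing the data. Named genes were the 5 members, up to 3 called genes with the largest change per list and comparison, a panel of 12 genes and the 3 nearest profiles per member, and KDM1A was added after its values were seen. A gene that the rule names is not reported here. Alternatives used DESeq2 1.42.0, limma 3.58.1 and voom, other scalings and filters, a replicate block and each library left out. The scripts were tested on simulated counts.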

Additional observations from a re-analysis of the deposited data

How the results depend on the processing

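STMN2 and STMN4 kept their calls between days under all 18 alternatives, as did GAP43 from Day21 to Day42 and from Day0 to Day42 and STMN1 from Day0 to Day42. The members' results gave 310 of 355 alternative values with the same direction and call, 28 with another call and 17 reversed, and the other named genes gave 1378 of 1533, 144 and 11. From Day0 to Day21 the members called, 4, became 2 with the replicate block and 2 to 4 with 1 library left out, since STMN1 and GAP43 lie near the threshold.

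All genes called from Day0 to Day21 numbered 504. They became 881 with a filter at FPKM 1 in 3 libraries, 2952 with DESeq2, 1316 and 1325 with limma at pseudocounts of 1 and 0.1, 6925 with voom, 5009 with only the 2 days in the fit, 109 with the replicate block and 133 to 2894 with 1 library left out, the highest without Day42 replicate 3. From Day21 to Day42, 5295 became 3095 with the FPKM filter, 2420 with the block and 3301 to 7275 with 1 library left out. From Day0 to Day42, 6499 became 3754 and 3710 with the filter and the block. The cause of these differences was not tested.

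STMN1 from Day21 to Day42 reversed to 0.0094 with median-of-ratios scaling and with DESeq2, 0.016 without a filter, 0.031 with the FPKM filter, 0.56 with limma at either pseudocount, and -0.50 to 0.28 with 1 library left out. STMN3 ranged from -0.039 to 1.57 in the first step and from -0.52 to 0.74 in the second with 1 library left out, and was 0.58 and 0.71 in the second by limma. The contrast between its steps ranged from -1.63 to 0.78, and that of STMN4 was 1.48 by limma at a pseudocount of 1, past the threshold (adjusted p = 0.0259). DPYSL3 from Day0 to Day42 reversed to 0.039, 0.44, 0.47 and 0.25 with the FPKM filter, limma at 1 and 0.1 and voom, and ranged from -0.52 to 0.18. TARDBP from Day0 to Day21 reversed to 0.011, 0.0079 and 0.0052 with the filter and limma, and ranged from -0.22 to 0.11.

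Replicate numbers did not pair the libraries: correlations of deviations between same-numbered libraries ran from -0.225 to 0.027, and not every library correlated best with its own number. With 3 libraries a day, small changes of variable genes such as STMN3 were not detectable.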
